A study of Mus musculus with 8 samples.

Results

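The genes described are 10 members of pathways by which FRCs (fibroblastic reticular cells, the lymph node fibroblasts that scaffold the T cell zone) are known to restrain T cells: the enzymes of prostaglandin synthesis, a prostaglandin E2 receptor and the inducible nitric oxide synthase Nos2. They were picked by symbol from the 55367 genes of the count table, with earlier results of these data known, and are Pla2g4a, Ptgs1, Ptgs2, Ptges, Ptges2, Ptges3, Ptgis, Ptgds, Ptger4 and Nos2. All 10 were found. Of these, 7 passed the filter of at least 10 counts in at least 3 libraries and were tested among 12137 genes, and Ptges, Ptgds and Nos2 did not pass and are given as counts.

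Poly(A) RNA was sequenced from 1 mouse FRC line under 4 conditions, each with 2 libraries, after 4 days in RPMI with 2% FBS. The conditions were vehicle (water in RPMI), LA (lactic acid at 15 mmol/L in RPMI), CCM (medium conditioned by FRCs) and TCM (medium conditioned by B16.F10 cells, a mouse melanoma line). The line came from lymph nodes of C57BL/6 mice that carry the p53ER/ER alleles, which the cells of every condition share, so all values describe a single cultured line. The libraries of a condition are described as biological replicates, without saying how the cultures were kept apart, and P values measure the spread between these libraries of a single line.

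Prostaglandin synthesis starts when a phospholipase A2 frees arachidonic acid from membranes, which the cyclooxygenases turn into prostaglandin H2 and terminal synthases then turn into prostaglandin E2, prostacyclin or prostaglandin D2. Prostaglandin E2 acts on receptors such as EP4 (Ptger4) and dampens T cell activation, and nitric oxide made by Nos2 from arginine stops T cells from dividing. In FRCs, Nos2 is known as an enzyme that signals from activated T cells induce, interferon gamma and TNF among them.

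Total counts ran from 8232889 to 14107964 per library, so that 3 counts, taken as the floor, equal 0.211 to 0.354 CPM (the count as a share of the library total, scaled with TMM factors throughout). Floors and counting intervals cover counting error only. Replicate libraries differed by more than sampling noise in every condition, and most between the TCM libraries. The chi-square per degree of freedom was 19.8 for TCM, against 7.32 (LA), 4.82 (vehicle) and 3.28 (CCM). The tests below fitted all 8 libraries together. Whether the wider TCM spread makes P values of the TCM comparisons too small was not tested. The FRC markers Pdpn and Vcam1 were at 114 to 187 CPM and 136 to 215 CPM, whereas Ccl21a was at 0 in all libraries, Ccl19 reached at most 1 count and Thy1 had 1 to 16 counts. Of 7 leukocyte markers 6, Ptprc among them, were at 0 in all 8 libraries, and Cd68 had 2 to 22 counts. The 7 melanocyte markers summed to 2.29 to 2.63 CPM with TCM and to 1.81 to 3.66 CPM in the other conditions. Tyrp1, at 6 and 3 counts, and Dct, at 1 and 1, were read in both TCM libraries and in no other library. Whether carry-over from the melanoma cells touched any member was not tested.

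Measured as CPM per kb of exon and averaged over the 8 libraries, levels spread widely along the pathway. Ptges3, the cytosolic prostaglandin E synthase that is also the HSP90 cochaperone p23, was highest at 34.9 CPM per kb, above 88.9% of the tested genes with a length. Pla2g4a followed at 11.3, and Ptgs1 at 4.85, Ptges2 at 3.54, Ptgis at 2.27, Ptgs2 at 1.58 and Ptger4 at 1.02 CPM per kb all lay under the median of 6.41 over 11964 genes. Ptges and Ptgds were at 0.0556 and 0.0230 CPM per kb, and Nos2 was at 0.

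**Figure D1:**
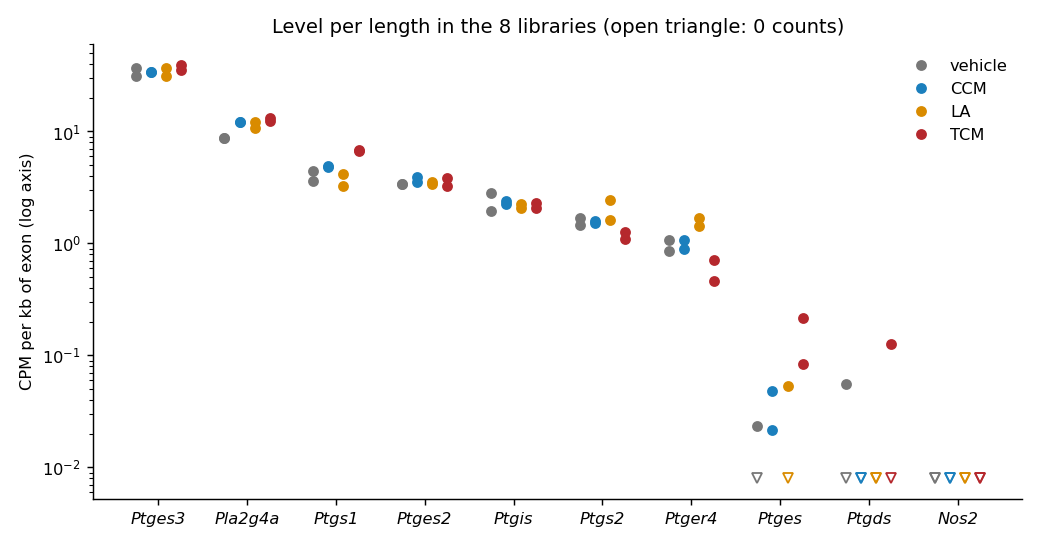
Level of the 10 genes in CPM per kb of exon (log axis), with a point for each of the 2 libraries of vehicle, CCM, LA and TCM and an open triangle, drawn at the foot of the axis, where one or both libraries of a condition had 0 counts. Mean levels go from Ptges3 at 34.9 CPM per kb down to Ptger4 at 1.02, and Ptges, Ptgds and Nos2 lie under all other genes.

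TCM was compared with CCM to ask how medium conditioned by tumor cells differs from medium conditioned by FRCs. In that comparison, factors gained from tumor cells and factors of FRCs that are absent cannot be told apart. LA was compared with vehicle to ask what lactic acid changes alone. Calls were made with edgeR's quasi-likelihood test over all tested genes and needed a log2 FC beyond 0.39 with adjusted P under 0.05. Between TCM and CCM, 1 of the 7 tested members was called, Ptgs1, which was higher, where 19.1% of all genes were called. Between LA and vehicle 0 of 7 were called by edgeR, where 2.55% of all genes were. At an unadjusted P value under 0.05 there were 2, Pla2g4a and Ptger4, and DESeq2 also called 0. The TCM effect minus the LA effect was called for 1 member, Ptger4, where 10.4% of all genes were called. Counts of 0 or 1 of 7 lie near these backgrounds and show nothing particular to the members.

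The other 4 comparisons share libraries with those and are given for the order of the levels. CCM against vehicle called 1 member, Pla2g4a (1.3% of all genes), and LA against CCM called 0 by edgeR, with 2 at an unadjusted P value under 0.05 and 0 by DESeq2 (0.626% of all genes). TCM against vehicle called 2, Pla2g4a and Ptgs1 (17.5% of all genes), and TCM against LA called 3, Ptgs1, Ptgs2 and Ptger4 (16.1% of all genes). With 2 libraries a side, values that do not overlap are common: the share of all tested genes without overlap was 58.3% for TCM with CCM, 48% for LA with vehicle, 49.8% for CCM with vehicle, 47.7% for LA with CCM, 55.5% for TCM with vehicle and 53.8% for TCM with LA.

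**Figure D2:**
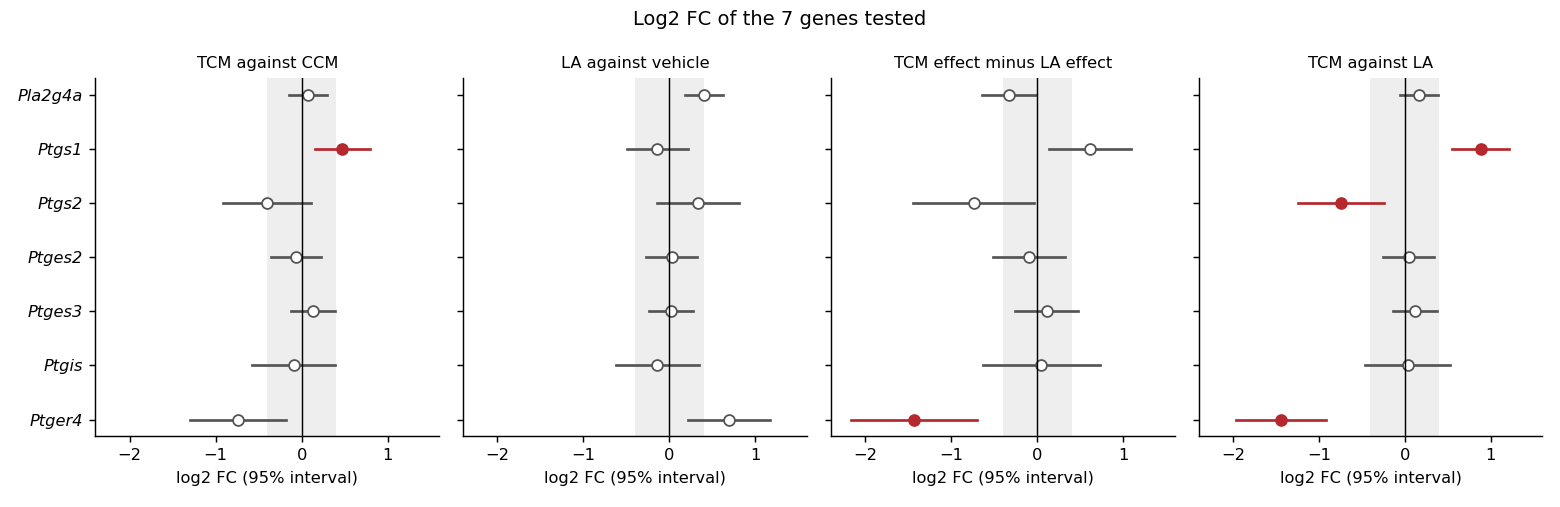
Log2 FC of the 7 tested genes (points) with 95% intervals (bars) in 4 comparisons, where filled red points were called and the grey band marks log2 FC within 0.39 of 0. Ptgs1 was called higher between TCM and CCM at 0.47, and Ptger4 lower in the difference of effects at −1.43 and between TCM and LA at −1.44.

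Pla2g4a encodes cytosolic phospholipase A2 alpha, which frees arachidonic acid for the cyclooxygenases, and lies at chr1:149829618-149961290 on the minus strand (GRCm38, GENCODE M21, as for all positions). Vehicle libraries had 55.7 and 55.4 CPM, CCM libraries 78.3 and 77.6, LA libraries 68.1 and 78.3, and TCM libraries 84.6 and 79.4. Vehicle stood apart, with both libraries under the other 6, and CCM, LA and TCM lay close together. The means were 55.5 ± 0.167 CPM (SD, n = 2 libraries here and throughout) with vehicle and 82.0 ± 3.72 with TCM, 1.48-fold higher (log2 FC 0.56, SE 0.103, adjusted P = 0.00334). CCM, at 78.0 ± 0.508 CPM, was 1.40-fold above vehicle (log2 FC 0.49, SE 0.102, adjusted P = 0.0466). TCM and CCM were not called apart, with a log2 FC of 0.07 and a 95% interval of −0.15 to 0.29 (adjusted P = 0.654). LA gave a log2 FC of 0.40 over vehicle, with an interval of 0.18 to 0.63 and an adjusted P value of 0.0724.

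The TCM call for Pla2g4a against vehicle was made in 16 of 16 alternatives, all refits at the same fold threshold. The CCM call was made in 8 of 16 and was lost without either vehicle library, either CCM library or either LA library, with adjusted P values of 0.0561 to 0.375. Conversely, LA against vehicle was called in 5 of 16 alternatives. Without TCM replicate 1 or TCM replicate 2, 2 of these, the log2 FC was 0.40. The other edgeR fits that called it were without the filter (adjusted P = 0.0294), of only the libraries compared (adjusted P = 0.041) and with a replicate block in which the CCM numbers were crossed (adjusted P = 0.0306).

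The cyclooxygenases are shown with their promoters because, with Ptger4, they are the members that were called between TCM and LA. Sequences are the 250 bases before the start in RefSeq (GRCm38.p6), written 5′ to 3′ on the gene's strand, and capitals mark a match to a searched motif. Ptgs1 is from chr2:36230176-36230425 (plus strand) and Ptgs2 from chr1:150099781-150100030 (plus strand).
Ptgs1: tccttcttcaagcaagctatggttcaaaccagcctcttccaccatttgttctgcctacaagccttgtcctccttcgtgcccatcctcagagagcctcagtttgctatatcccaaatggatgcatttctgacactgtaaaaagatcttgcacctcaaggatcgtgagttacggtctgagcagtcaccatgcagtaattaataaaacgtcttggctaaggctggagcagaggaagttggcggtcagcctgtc
Ptgs2: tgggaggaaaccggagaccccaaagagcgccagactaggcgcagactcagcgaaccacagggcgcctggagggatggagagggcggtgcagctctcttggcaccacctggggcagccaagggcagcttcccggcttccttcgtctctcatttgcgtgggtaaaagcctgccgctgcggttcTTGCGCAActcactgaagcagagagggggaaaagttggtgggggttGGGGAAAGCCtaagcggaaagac

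In all, 8 motifs were searched on both strands from 250 bases before to 50 bases after each start: TATAAA, TTCNNNGAA (GAS), the interferon-stimulated response element (ISRE), the kappa B motif, TGACGTCA (CRE), TTGCNNAA (C/EBP), CACGTG (E-box) and ACGTG (HRE core, which overlaps the E-box). The Ptgs2 promoter held TTGCNNAA 69 bases before the start, a motif in 10.8% of 32851 promoters, and a kappa B motif 23 bases before it, a motif in 50.8%. It also held CACGTG 17 bases after the start, outside the stretch shown, as 7.15% of promoters do. In the Ptgs1 promoter the one match was a kappa B motif, 28 bases after the start. RefSeq promoters were matched for 8 of the 10 members, in 9 entries since Pla2g4a has 2, and none of the 9 held TTCNNNGAA (8.3% of all promoters), ISRE (3.44%) or TGACGTCA (1.79%). A kappa B motif was in 6 of the 9, Ptges2 held CACGTG 77 bases before its start, and the second Pla2g4a start had TATAAA 200 bases before it on the other strand. The kappa B motif was searched in a loose form that left its middle bases free, which 50.8% of all promoters held. Whether any match also fits a stricter form of the motif was not tested. All of these are matches of letters and not binding sites.

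Ptgs1, the cyclooxygenase COX-1 that many cells make at a steady level, lies at chr2:36230426-36252272 on the plus strand. It was at 17.4 and 14.1 CPM in the vehicle libraries, 18.9 in both CCM libraries, 16.3 and 12.6 in the LA libraries and 25.8 and 26.7 in the TCM libraries. Both TCM libraries were above the other 6, and vehicle and LA overlapped. TCM, at 26.2 ± 0.651 CPM, was 1.39-fold above CCM at 18.9 ± 0.025 CPM (log2 FC 0.47, SE 0.147, adjusted P = 0.0413). TCM was also 1.67-fold above vehicle (log2 FC 0.74, SE 0.152, adjusted P = 0.00649) and 1.84-fold above LA (log2 FC 0.88, SE 0.152, adjusted P = 0.00252). LA against vehicle gave a log2 FC of −0.14 with an interval of −0.49 to 0.21, and the TCM and LA effects, which differed by 0.61, were not called apart (adjusted P = 0.104). The lower 3 conditions, LA, vehicle and CCM in rising order of their means, were not called apart from each other.

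Leaving out CCM replicate 1, CCM replicate 2 or TCM replicate 2 ended the call of Ptgs1 between TCM and CCM, with adjusted P values of 0.189, 0.167 and 0.0618 at log2 FC of 0.47, 0.48 and 0.45. Scaling without TMM factors gave 0.34 (adjusted P = 0.133), and DESeq2 gave 0.49 (adjusted P = 0.081). The call against LA was made in 16 of 16 alternatives, and that against vehicle in 15 of 16, being lost without vehicle replicate 2 (log2 FC 0.59, adjusted P = 0.0783). Of its exon bases, 148 are shared with Gm43621 on the other strand, which had 0 counts in all libraries.

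Ptgs2, the inducible cyclooxygenase COX-2, lies at chr1:150100031-150108227 on the plus strand. It was read at 46 to 105 counts per library, or 7.70 and 6.65 CPM (vehicle), 7.33 and 6.97 CPM (CCM), 11.1 and 7.40 CPM (LA) and 5.79 and 5.01 CPM (TCM). Both TCM libraries were the lowest of the 8, LA replicate 1 was the highest, and LA replicate 2 lay among the vehicle libraries. TCM, at 5.40 ± 0.548 CPM, was 1.67-fold under LA at 9.25 ± 2.62 CPM (log2 FC −0.74, SE 0.228, adjusted P = 0.0456). Against CCM the log2 FC of TCM was −0.40 with an interval of −0.92 to 0.11 (adjusted P = 0.251), and LA against vehicle gave 0.34 with an interval of −0.14 to 0.81 (adjusted P = 0.56). CCM and vehicle were at 7.15 ± 0.254 and 7.18 ± 0.739 CPM, with an interval of −0.49 to 0.49 for their log2 FC. In bulk RNA, fewer cells that express a gene and less RNA per cell cannot be told apart.

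The call of Ptgs2 between TCM and LA was made in 7 of 16 alternatives. It was lost with DESeq2 (log2 FC −0.76, adjusted P = 0.0812) and in an edgeR fit of only the libraries compared (−0.74, adjusted P = 0.0935). Without LA replicate 1 the log2 FC was −0.45 (adjusted P = 0.246). It was also lost without either TCM library, either CCM library or either vehicle library, at log2 FC of −0.84 to −0.63 and adjusted P values of 0.0624 to 0.0975.

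Per kb of exon, Ptgs1 stood above Ptgs2 in every condition: 4.06 against 1.57 CPM per kb with vehicle, 4.86 against 1.56 with CCM, 3.72 against 2.02 with LA, and 6.76 against 1.18 with TCM. The cyclooxygenase levels were thus nearest to each other with LA and farthest apart with TCM. The annotated antisense transcript Ptgs2os does not overlap Ptgs2 and had 1 to 7 counts.

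**Figure D3:**
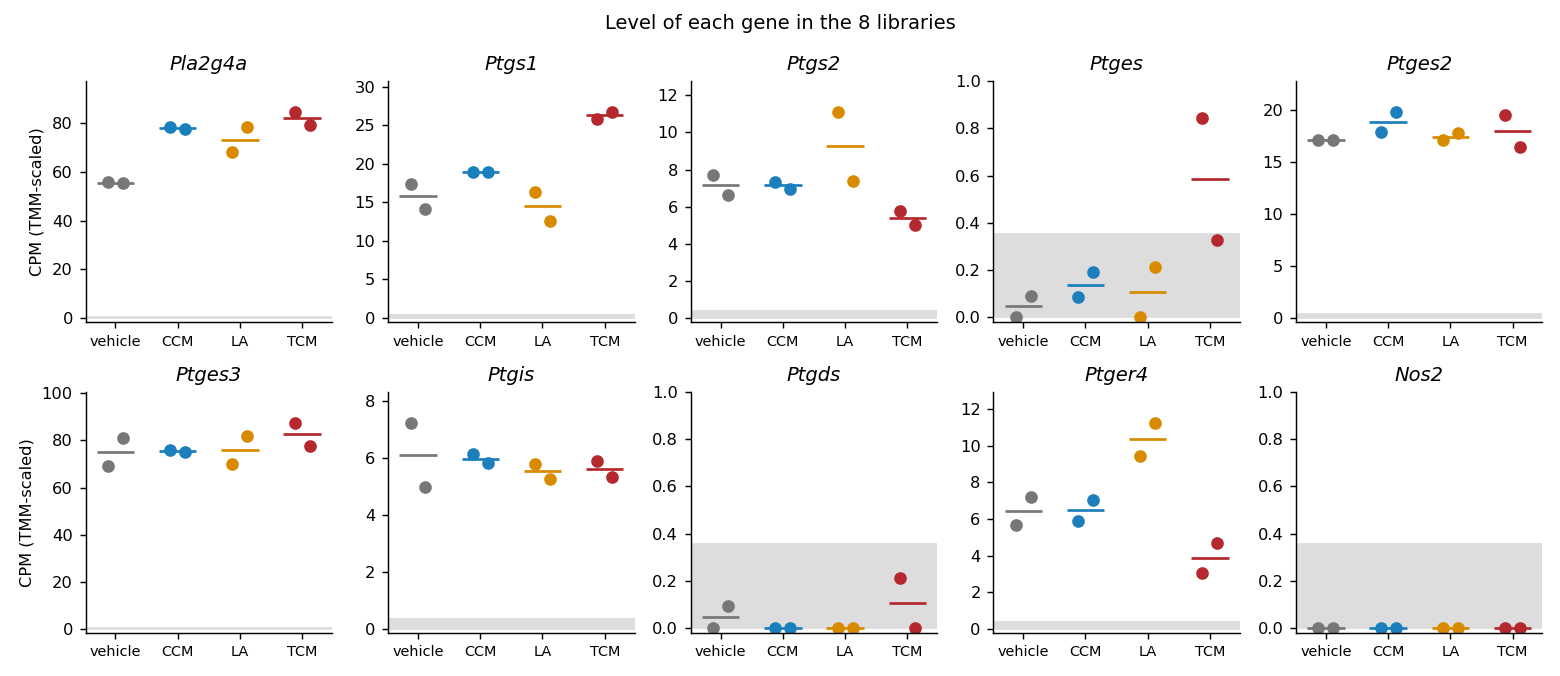
Level of each gene in CPM (linear axes from 0, scaled per gene) in the 2 libraries of each condition (points) with their mean (line). The grey band spans 0 to the highest floor of 3 counts, 0.354 CPM, in which Ptgds and Nos2 lie throughout and Ptges in all libraries but TCM replicate 1. Ptgs1 sits highest and Ptgs2 and Ptger4 lowest with TCM.

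Of the prostaglandin E synthases, Ptges2 and Ptges3 were read in every library and neither was called in any of the 7 comparisons. Ptges2, the membrane-associated synthase mPGES-2, lies at chr2:32395896-32405772 on the plus strand and was at 17.2 CPM in both vehicle libraries, 17.9 and 19.9 CPM in the CCM, 17.1 and 17.8 CPM in the LA and 19.6 and 16.5 CPM in the TCM libraries. TCM against CCM gave a log2 FC of −0.07 (interval −0.36 to 0.23) and LA against vehicle 0.03 (−0.27 to 0.32). Ptges3 lies at chr10:128058954-128077272 on the plus strand and was at 69.1 and 81.1 CPM (vehicle), 76.0 and 75.0 CPM (CCM), 69.9 and 81.9 CPM (LA) and 87.6 and 77.8 CPM (TCM). For Ptges3 the intervals were −0.13 to 0.39 for TCM against CCM and −0.24 to 0.28 for LA against vehicle. TCM and vehicle overlapped for both genes.

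Ptges, the inducible synthase mPGES-1 that is usually coupled to COX-2, lies at chr2:30889471-30929863 on the minus strand and stayed near the floor. Its counts were 0 and 1 (vehicle), 1 and 2 (CCM), 0 and 3 (LA) and 8 and 3 (TCM). Only TCM replicate 1 was above 3 counts, and TCM replicate 2 had as many as LA replicate 2. Summed over libraries, TCM had 11 counts and CCM 3, a ratio of CPM of 4.39 with an exact 95% counting interval of 1.16 to 24.5. Against vehicle, with 1 count, the ratio was 11.7 (1.69 to 502). These intervals leave out the spread between libraries, and in an edgeR fit of 23234 genes without the filter Ptges was not called (adjusted P = 0.194 against CCM and 0.0623 against vehicle).

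Ptgis, the prostacyclin synthase, lies at chr2:167191805-167240604 on the minus strand and had 49 to 75 counts per library. Levels were 7.25 and 4.99 CPM (vehicle), 6.15 and 5.82 CPM (CCM), 5.79 and 5.28 CPM (LA) and 5.89 and 5.34 CPM (TCM). The vehicle libraries spanned all the others. Its log2 FC was −0.09 between TCM and CCM (interval −0.58 to 0.39, adjusted P = 0.804) and −0.14 between LA and vehicle (−0.62 to 0.34, adjusted P = 0.86). It shares 156 exon bases with 1110018N20Rik, which had 0 counts. Ptgds, the lipocalin-type prostaglandin D synthase at chr2:25466709-25470046 on the minus strand, had 1 count in vehicle replicate 2 and 2 counts in TCM replicate 1, and 0 in the other 6 libraries.

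Ptger4 encodes EP4, a prostaglandin E2 receptor that raises cyclic AMP, and lies at chr15:5206661-5244187 on the minus strand. Its promoter is shown because the difference between its TCM and LA effects was the largest of the 7. The sequence is chr15:5244188-5244437 on the minus strand (RefSeq, GRCm38.p6). Capitals mark the loose form of the kappa B motif on either strand, at 189, 188 and 104 bases before the start, where the first pair overlap. It held none of the other 7 motifs.
Ptger4: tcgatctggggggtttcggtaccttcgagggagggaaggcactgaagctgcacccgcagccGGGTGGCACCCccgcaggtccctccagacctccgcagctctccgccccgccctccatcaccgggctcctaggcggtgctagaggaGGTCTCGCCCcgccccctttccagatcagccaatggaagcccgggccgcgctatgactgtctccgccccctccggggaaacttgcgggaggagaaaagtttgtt

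Ptger4 had 51 and 78 counts in the vehicle libraries, 70 and 74 in the CCM, 80 and 160 in the LA and 29 and 43 in the TCM libraries. As CPM these were 5.69 and 7.21 (vehicle), 5.90 and 7.06 (CCM), 9.45 and 11.3 (LA) and 3.05 and 4.69 (TCM). Both LA libraries were above and both TCM libraries below all 4 control libraries, which overlapped each other. TCM, at 3.87 ± 1.16 CPM, was 2.71-fold under LA, at 10.4 ± 1.29 CPM (log2 FC −1.44, SE 0.238, adjusted P = 0.00195), and this was called in 16 of 16 alternatives, at −1.78 to −1.16.

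Each medium was also set against its own control, and neither of these differences was called. TCM against CCM gave a log2 FC of −0.74 (SE 0.252, interval −1.30 to −0.19, adjusted P = 0.059), and LA against vehicle gave 0.69 (SE 0.217, interval 0.21 to 1.17, adjusted P = 0.146). The difference between these effects was −1.43 (SE 0.332, adjusted P = 0.0191), which was called. It was not called without vehicle replicate 1 (−1.28, adjusted P = 0.0756), CCM replicate 2 (−1.30, adjusted P = 0.0848) or LA replicate 2 (−1.28, adjusted P = 0.0823), and its range was −1.77 to −1.15 over 15 alternatives. TCM against CCM was called in 5 of 16 alternatives, among them without TCM replicate 2 (−1.08, adjusted P = 0.0158), without TMM factors (−0.88, adjusted P = 0.0247) and without the filter (adjusted P = 0.0268). LA against vehicle was called in 3 of 16 alternatives. These were the edgeR fit without the filter (0.70, adjusted P = 0.0377) and those without TCM replicate 1 or TCM replicate 2 (log2 FC 0.69).

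Of the exon bases of Ptger4, 1097 are shared with Ttc33 and Gm15937 on the other strand, and whether reads were counted by strand is not given in the sources used here. Ttc33 had 265 to 432 counts and did not follow Ptger4, with a log2 FC of 0.05 between TCM and CCM (adjusted P = 0.793), −0.03 between LA and vehicle (adjusted P = 0.951) and −0.01 between TCM and LA (adjusted P = 0.979). Gm15937 had at most 1 count.

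Nos2, at chr11:78920787-78960254 on the plus strand, had 0 counts in all 8 libraries. Over the 83403400 counts of all libraries this allows a level of up to 0.0360 CPM, and within a library of up to 0.211 to 0.354 CPM. No difference between the conditions could be seen at this depth. The other nitric oxide synthases were near the floor too, Nos1 with 0 to 4 counts and Nos3 with 1 to 3 per library, as was Gch1, which makes the cofactor the synthases need, with 0 to 6.

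Other genes of these pathways were counted from lists of related enzymes, receptors and signals, read against 8.83% of all tested genes called higher and 10.2% called lower between TCM and CCM, and 1.31% and 1.24% between LA and vehicle. The median log2 FC over all tested genes was 0.00 in both comparisons. Scaling without TMM factors moved that median to −0.14 between TCM and CCM, and 24.2% of 2690 calls were then higher, against 46.3% of 2314 with TMM factors.

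Among 5 tested genes of arachidonic acid release other than Pla2g4a, 2 were higher with TCM than with CCM and 0 lower, with a median log2 FC of 0.18. Anxa1 (annexin A1, known as an inhibitor of phospholipase A2) was at 1251 ± 177 CPM with TCM and 778 ± 42.6 with CCM (log2 FC 0.68, adjusted P = 0.00174). Pla2g15, a lysosomal phospholipase A2, was higher with TCM (log2 FC 0.65, adjusted P = 0.00104) and lower with LA than with vehicle (−0.51, adjusted P = 0.0304), the 1 call of the list in that comparison, where the median was −0.18. The 2 Pla2g15 effects differed by 1.16 (adjusted P = 0.000475), while the LA call was lost without any 1 of the vehicle, CCM or LA libraries (adjusted P up to 0.238). Secreted phospholipases such as Pla2g2e, Pla2g5 and Pla2g10 had at most 4 counts.

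Among 9 tested genes of prostanoid synthesis, breakdown and transport, 3 were higher with TCM than with CCM and 0 lower, with a median log2 FC of 0.21. Slco2a1, the transporter that takes prostaglandins into cells for breakdown, was at 56.4 ± 10.6 CPM with TCM and 29.0 ± 1.23 with CCM (log2 FC 0.96, adjusted P = 0.000533), and at 27.7 ± 1.13 with LA and 44.7 ± 2.35 with vehicle (−0.69, adjusted P = 0.0262). Slco2a1 effects differed by 1.64 (adjusted P = 0.000273). The TCM libraries, at 48.9 and 63.9 CPM, lay above the vehicle libraries at 43.1 and 46.4, and the value of CCM was under that of vehicle (log2 FC −0.62, adjusted P = 0.0512). The LA call of Slco2a1 was lost without any 1 of the vehicle or LA libraries (adjusted P up to 0.217).

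Prxl2b, a prostamide and prostaglandin F synthase, was at 6.21 and 2.94 CPM with TCM and 1.26 and 1.05 with CCM (log2 FC 1.97, adjusted P = 0.00648). Cbr1, a carbonyl reductase of prostaglandins, had a log2 FC of 0.51 (adjusted P = 0.0374), which was called in 8 of 16 alternatives. The call was lost with DESeq2, without TMM factors and in a fit of only the libraries compared. It was also lost without either vehicle library, either CCM library or TCM replicate 1 (log2 FC 0.35 to 0.65 over all alternatives). Between LA and vehicle Slco2a1 was the 1 call of this list, with a median of −0.11. Hpgd, the dehydrogenase that inactivates prostaglandin E2, and Hpgds and Akr1c18 had 0 counts in all libraries.

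Besides Ptger4, 2 of 9 prostanoid receptor genes were tested, Ptgfrn, a regulator of the prostaglandin F receptor, and Ptger1, the receptor EP1, of which 0 were higher and 1 lower with TCM than with CCM (median log2 FC −0.96) and 0 were called between LA and vehicle (median 0.09, 0 by DESeq2 and 0 at an unadjusted P value under 0.05). Ptger1 was at 2.21 and 3.27 CPM with TCM and 7.50 and 9.45 with CCM (log2 FC −1.62, SE 0.294, adjusted P = 0.00282), and LA was not called apart from vehicle (0.15, adjusted P = 0.876). Ptger1 effects of TCM and LA differed by −1.77 (adjusted P = 0.0156), which was lost without CCM replicate 2 or LA replicate 2 (adjusted P up to 0.0667). Ptger2, which encodes EP2, and Ptger3, which encodes EP3, had at most 1 count. So 1 of the 2 tested prostaglandin E2 receptors, Ptger1, was lower with TCM than with CCM, and Ptger4 missed the threshold there. Of the lipoxygenase branch 1 of 10 genes was tested, Lta4h, with 0 calls by edgeR or DESeq2 and 0 at an unadjusted P value under 0.05 (log2 FC −0.13 between TCM and CCM and −0.06 between LA and vehicle). Alox5 and Alox15 had 0 counts.

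**Figure D4:**
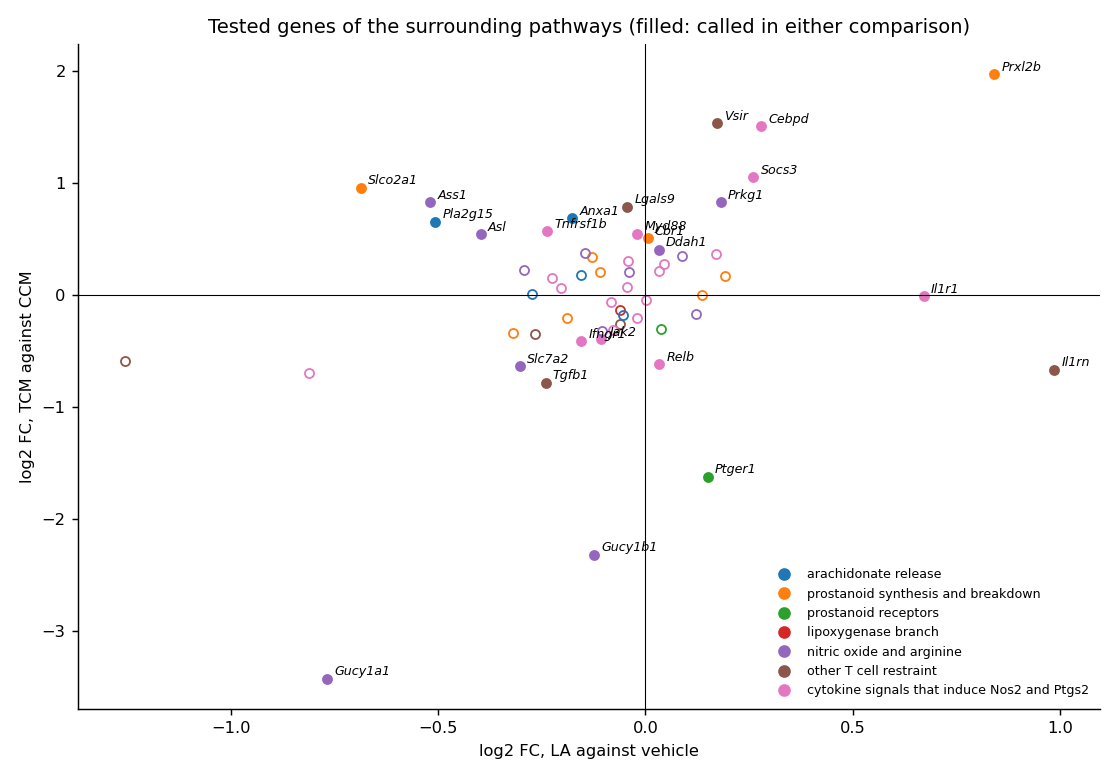
Log2 FC of LA against vehicle (x axis) and of TCM against CCM (y axis) for the tested genes of the surrounding pathways, colored by list, filled and named where called in either comparison, with a few genes of the lists not drawn. Slco2a1 and Pla2g15 lie in the upper left (higher with TCM, lower with LA), Il1rn in the lower right, and Gucy1a1 lowest at −3.43 on the TCM axis.

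Among 14 tested genes of nitric oxide and arginine metabolism, 4 were higher and 4 lower with TCM than with CCM, with a median log2 FC of 0.21, and over alternatives the list had 3 to 10 calls. Gucy1a1 and Gucy1b1, the subunits of soluble guanylate cyclase, the receptor of nitric oxide, had the largest changes of the list. Gucy1a1 was at 0.842 and 0.981 CPM with TCM and 11.5 and 8.21 with CCM (log2 FC −3.43, adjusted P = 0.000262). Gucy1b1 had 1 and 4 counts with TCM and 15 and 16 with CCM (−2.32, adjusted P = 0.0123). This call was lost with DESeq2 and without CCM replicate 2 or TCM replicate 1 (log2 FC −3.58 to −1.64 over all alternatives).

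Prkg1, the kinase that cyclic GMP activates, was higher (log2 FC 0.83, adjusted P = 0.0481), though this was called in only 8 of 16 alternatives. The call was lost with DESeq2, without TMM factors, without the filter and with at least 10 counts in every library. It was also lost without any 1 of the CCM or TCM libraries (log2 FC 0.61 to 1.02 over all alternatives). Between LA and vehicle the median log2 FC of the list was −0.11. Arg1 and Arg2, which compete for arginine, had 0 counts.

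Among 7 tested genes of other T cell restraint, 2 were higher and 2 lower with TCM than with CCM, with a median log2 FC of −0.35. Vsir, the checkpoint protein VISTA, was at 7.93 ± 0.197 CPM with TCM and 2.73 ± 0.052 with CCM (log2 FC 1.53, adjusted P = 0.000412), and Lgals9, galectin 9, was at 255 and 266 CPM against 149 and 152 (0.79, adjusted P = 0.000153). Tgfb1 was lower (−0.78, adjusted P = 0.0114), a call lost without CCM replicate 1 (adjusted P = 0.0817). Il1rn, the antagonist of the IL-1 receptor, was lower with TCM (−0.67, adjusted P = 0.00138) and, the 1 call between LA and vehicle, higher with LA (0.99, adjusted P = 0.00112), where the median of the list was −0.06. Il1rn effects differed by −1.66 (adjusted P = 8.01e-05). Its means were 94.7 CPM with vehicle, 137 with CCM, 187 with LA and 86.2 with TCM, so TCM lay nearer to vehicle than to CCM. CCM was itself called above vehicle (log2 FC 0.53, adjusted P = 0.0423). Il10, Pdcd1lg2 and Tdo2 had 0 counts, Ido1 at most 1, and Cd274, which encodes PD-L1, 2 to 10.

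Among 21 tested genes of the cytokine signals that induce Nos2 and Ptgs2, 5 were higher and 3 lower with TCM than with CCM, with a median log2 FC of 0.07. Among these were Cebpd (log2 FC 1.51, adjusted P = 6.29e-05), Socs3, a suppressor of cytokine signaling (1.05, adjusted P = 0.000642), and Relb (−0.62, adjusted P = 0.00724). Relb was not called without CCM replicate 1 (adjusted P = 0.0866). Between LA and vehicle the median was −0.02, and Il1r1, the IL-1 receptor, was higher with LA (0.67, adjusted P = 0.0161). This call was lost without either vehicle library or LA replicate 1 (adjusted P up to 0.145).

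By likeness of pattern, measured as Pearson's r of log2 CPM over the 8 libraries, the genes nearest to Ptgs2 were Kbtbd8 (0.966), Trim41 (0.953) and Tagap (0.948), and those nearest to Pla2g4a were Wee1 (0.973), Serpinf1 (0.966) and Mrgbp (0.940). These are descriptions, since all genes share the same libraries and depth and each was picked as the highest of 12137. Serpinf1 was at 269 ± 8.13 CPM with vehicle, 376 ± 24.8 with CCM, 388 ± 33.2 with LA and 429 ± 32.5 with TCM, where Pla2g4a had its LA mean under its CCM mean.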

How the data were processed

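Poly(A) RNA of 8 libraries was measured, 2 for each of vehicle, CCM, LA and TCM, grouped by their labels. The authors prepared directional libraries, aligned reads to GRCm38 with STAR (2.7.0a per the submitters' processing notes) and counted them per gene with featureCounts (Subread 2.0.1), and the deposited values are whole-number counts with no normalization. Whether featureCounts used strand is not given in the sources used here, and counting without it could change the counts of overlapping genes. The authors' own tests used DESeq2 1.32.0. A second deposited table, named as normalized, holds the same counts for 12137 genes (100% of values equal) and was treated as counts. No columns were left unused (0).

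The filter kept genes reaching 10 counts in 3 or more libraries, which were fitted with edgeR 4.0.16 (TMM factors, estimateDisp, glmQLFit and glmQLFTest, robust) in R 4.3.3, all 8 libraries in the fit, with Benjamini-Hochberg adjustment over 12137 genes and no term for the replicate number. Calls needed adjusted P under 0.05 with a log2 FC of more than 0.39 in size. The study's methods give this fold cut-off for the gene lists of its pathway and transcription factor analyses. Its volcano plots mark a higher fold cut-off. The SE is the size of the log2 FC over the square root of F, and 95% intervals follow from it. An exact permutation test of 2 against 2 libraries cannot go below 0.333, so none was used. The script was tested on simulated data.

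All 10 members are named, and of each list up to 4 called genes of largest size per comparison, with genes at the floor named besides these after their counts were seen. Members and lists were chosen with earlier results of these data known. Some genes of the lists are not reported here, though the lists' counts and medians include them. Pla2g16 and Fam213b are in the lists but not in the table under those symbols. Ptges, under the filter, is given as a ratio with a counting interval rather than as a bound. Likeness of pattern was computed for Ptgs2 and Pla2g4a, the tested ones of Ptgs2, Ptges, Nos2 and Pla2g4a. Alternatives were DESeq2 1.42.0 and its size factors, no TMM factors, no filter, at least 10 counts in every library, fits of only the libraries compared, the replicate number as a block, other fold thresholds and leaving out each library. Counts out of 16 alternatives, or 15 for the difference of effects, cover refits at the same fold threshold. They leave out the other fold thresholds and include a block with the CCM numbers crossed.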

Additional observations from a re-analysis of the deposited data

Results flagged for a closer look

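The effect of TCM over CCM and the effect of LA over vehicle differed for Ptger4, the EP4 receptor of prostaglandin E2, by a log2 FC of −1.43 in edgeR's test of the difference itself (SE 0.332, adjusted P = 0.0191). Both LA libraries were above both vehicle libraries and both TCM libraries below both CCM libraries. Of all tested genes, 48% did not overlap between LA and vehicle and 58.3% did not between TCM and CCM. The difference of effects was called for 1 of the 7 tested members, where 10.4% of all genes were called. It was not called without vehicle replicate 1 (adjusted P = 0.0756), CCM replicate 2 (adjusted P = 0.0848) or LA replicate 2 (adjusted P = 0.0823).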

How the results depend on the processing

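With 2 libraries a condition, most calls near the threshold changed with 1 library. Over all refits at the same fold threshold, 777 values of members were recomputed. Of these, 683 kept their call and sign, 26 lost a call and 19 gained one. A further 49 changed sign without being called in either fit (none larger than 0.264), and 0 called values changed sign. The count of members called was 1 between TCM and CCM and became 0 at a log2 FC beyond 1 or with DESeq2, and 2 with no filter. Between LA and vehicle it was 0 and became 2 with no filter and 1 in a fit of only the libraries compared. For CCM against vehicle it was 1 and became 0 at a log2 FC beyond 1 or with DESeq2's size factors. For LA against CCM it was 0 and became 1 with no filter. At a log2 FC beyond 1 it fell from 2 to 0 for TCM against vehicle and from 3 to 1 for TCM against LA. Leaving out each library gave counts of 0 to 1 for TCM against CCM, 0 to 2 for LA against vehicle, 0 to 1 for the difference of effects, 0 to 1 for CCM against vehicle, 1 to 3 for TCM against vehicle and 2 to 3 for TCM against LA. Without TMM factors, 23.2% of all calls were higher for the difference of effects (42.6% with them), 30.5% for TCM against vehicle (49.1%) and 30.4% for TCM against LA (51.8%). Counts over all genes ranged from 760 to 2864 for TCM against CCM (2314 in the report), 57 to 656 for LA against vehicle (310), 629 to 2540 for the difference (1268), 0 to 679 for CCM against vehicle (158), 1 to 410 for LA against CCM (76), 668 to 2904 for TCM against vehicle (2121) and 623 to 2896 for TCM against LA (1955). The cause of these changes was not tested.

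With the replicate number as a block, 2 members were called between TCM and CCM, Ptger4 with an adjusted P value of 0.0251 besides Ptgs1, and 0 between CCM and vehicle, where Pla2g4a had 0.0501. It also called Ptger4 between TCM and vehicle (adjusted P = 0.0311) and changed no other call of a member. Same-numbered libraries had correlations of their deviations from −0.242 (CCM with TCM) to 0.353 (vehicle with LA), so the numbers were not taken to pair them. Over all genes, the block made 356 calls between LA and vehicle, against 310 without it. With the CCM numbers crossed in the block, an alternative chosen after seeing the data, 2 members were called between TCM and CCM and 1 between LA and vehicle.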
